A study of Mus musculus with 10 samples.

Results

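Csprs, the gene named as a component of the mouse Sp100-related sequence, was followed on 10 one-colour microarrays by its only probe, which is 1 spot on each array and 1 of 59709 probes in all. The probe carries a RefSeq accession that a table of RefSeq genes (GRCm38.p6) pairs with Csprs, gene ID 114564, on chromosome 1. It is 1 of 112 genes measured under a symbol, and it was chosen by its log2 differences between day 0 and days 3, 5 and 7 of brown adipocyte culture. Its levels over the culture days are therefore described without a test.

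Sp100 is a protein of the nuclear bodies organised by Pml, and its gene is induced by interferon. In mice, part of Sp100 became fused to Csprs sequence, and the fused unit was amplified into a cluster of repeats, so Csprs sequence occurs in several near-identical copies. A role of Csprs in fat is not stated in the labels, and the signal of the probe cannot be assigned to a single copy with certainty.

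The study measured long non-coding and coding RNA in wild type brown adipocytes, with 1 array each at days 0, 3, 5 and 7 of differentiation, and in fat of wild type, chow-fed mice. The fat groups, with 2 arrays each, were white fat after CL, brown fat after saline and white fat after saline. CL is CL316,243, an agonist of the β3-adrenergic receptor, injected into the peritoneum daily for 7 days at 1 mg/kg, and saline was injected on the same schedule. The labels call the fat arrays biological replicates, but do not say whether each was 1 mouse, give no age, sex or strain, name no fat depot, and do not give the origin of the cells or whether the 4 days came from 1 culture. Levels are given as log2 of the processed signal that the scanner program reports, less the 75th percentile over all probes of that array.

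The 6 fat arrays were scanned together and the 4 cell arrays were scanned together. Between 55.2% (brown fat replicate 1) and 78.3% (day 3) of probes were well above background, a mark that 10.9% to 36.4% of the 1200 negative control spots carried too. Those spots are repeats of 20 probes, so shares and percentiles over them rest on 20 probes and not on 1200 separate measures of background. The cell identity given by the labels could not be checked, because 0 of 8 preadipocyte, 0 of 6 brown adipocyte, 0 of 5 white adipocyte, 0 of 5 macrophage, 0 of 3 endothelial and 0 of 4 proliferation markers were measured under their names. Of 6 lymphoid and lymph node markers 2 were measured, Ccl21b and Ccl21c. Of genes related to Csprs, 0 of 22 genes of the Sp100 cluster and nuclear bodies and 0 of 13 interferon response genes had a named probe. The adipocyte differentiation list had 1 of 15, the glycerol kinase gene Gk, which was higher in brown than in white fat (0.59 and 0.80 in brown fat against -1.79 and -1.67 in white fat, both after saline, limma adjusted p = 0.0117). In the cells Gk was not above day 0 on any later day, at -0.57, -0.665 and -0.14 on days 3, 5 and 7.

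Csprs was highest in cells at day 0 and far lower from day 3 onwards. Its level was 3.29 at day 0, -1.11 at day 3, -0.71 at day 5 and -0.39 at day 7 (log2 relative to the 75th percentile, 1 array per day). Relative to day 0 the level was 21-fold lower at day 3, 16.0-fold lower at day 5 and 12.8-fold lower at day 7, which are log2 differences of -4.39, -4.00 and -3.68. The lowest level was at the first later day sampled, and the 3 later days lay within 0.72 of each other on the log2 scale, with day 7 the highest of the 3. The cell arrays lay along the slide in the order of their days, so day and place on the slide cannot be told apart. Day 0 highest with a higher level at each step between days 3, 5 and 7 was seen for 6.83% of all probes measured in the cells.

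**Figure D1:**
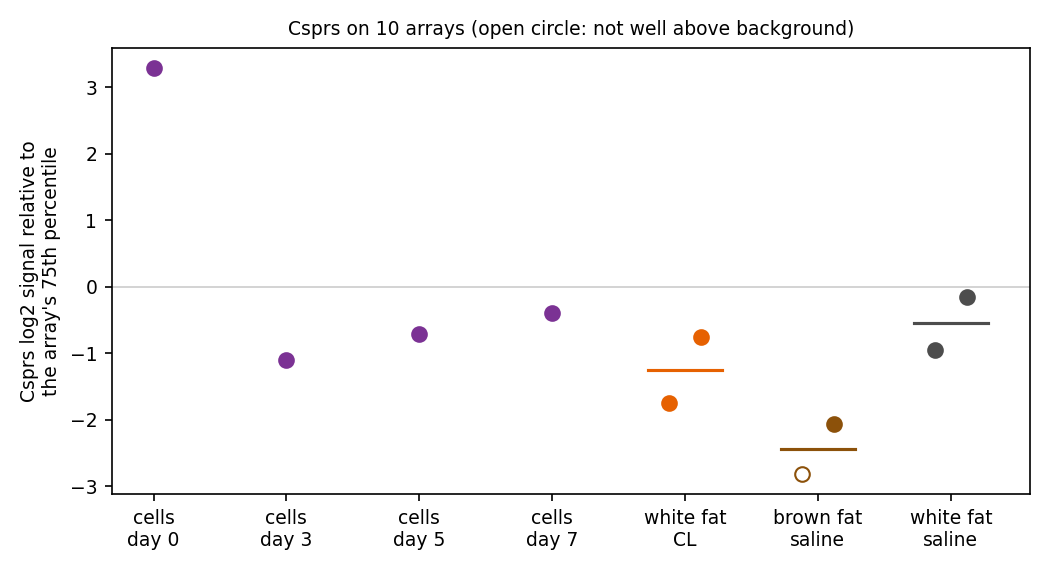
Csprs level (log2, 75th percentile of each array set to 0; vertical axis) for cells at days 0, 3, 5 and 7 and for the 3 fat groups; each point is 1 array, lines are means of 2 arrays, and the open circle is the array on which the probe was not well above background. Day 0 stands at 3.29 and the other 9 arrays lie between -2.82 and -0.16.

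The difference was present in the raw spot signal before any scaling. The processed signal was 3253 at day 0, against 175 at day 3, 256 at day 5 and 269 at day 7, each with an error, as the scanner program gives it, of between 10% and 10.2% of its size. The day 0 signal was 10.6-fold above the highest of the other 9 arrays, which was 306 in saline white fat replicate 2. On the 4 cell arrays the spot was well above background, and between 0 and 8 of 1200 negative control spots per array reached its signal. As a guide to the precision of a single spot, 3 probes printed repeatedly on every array (16 to 20 usable spots each) had a median SD between spots of 0.21 log2 where their mean signal was under 400, and at most 0.40. These SDs cover spot-to-spot error within an array and leave out the error between cultures.

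**Figure D2:**
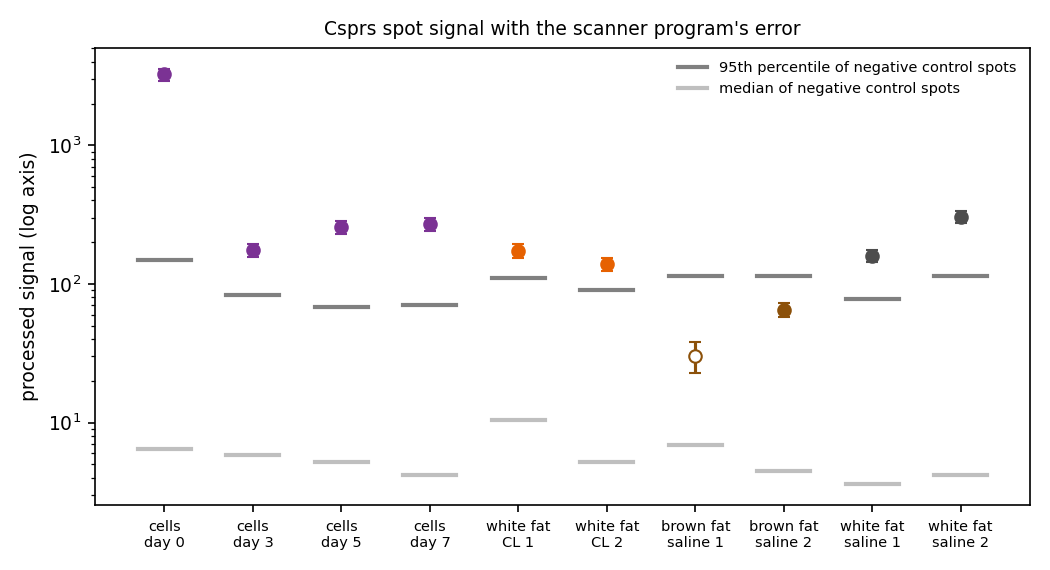
Processed signal of the Csprs spot (vertical log axis) on each of the 10 arrays, with the scanner program's error as bars; grey lines mark the median and the 95th percentile of 1200 negative control spots on the same array. Both brown fat signals, 30.3 and 65.1, lie under the 95th percentile of the negative control spots (114 on each array), and the other 8 arrays lie above it.

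Among all probes measured in the cells, those that stood well above background on 1 or more cell arrays, few were lower than day 0 by as much. At day 3 the difference was as low or lower for 274 of 48598 probes (0.564%), at day 5 for 302 of 48606 (0.621%) and at day 7 for 282 of 48608 (0.58%). The median over all these probes was -0.16, -0.27 and -0.13 at days 3, 5 and 7. Of 48630 probes, 3014 (6.2%) were at least 2-fold lower than day 0 on each of the 3 later days, and Csprs was chosen as one of them. Of 97 measured probes with a gene symbol 7 met the same rule, and Csprs had the lowest day 7 difference of the 97. Next in that order came Fam205a2 at -1.79 and a probe for Ppp2r3d, a regulatory subunit of protein phosphatase 2A, at -1.67. Fam205a2 was well above background on only 2 of the 4 cell arrays.

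**Figure D3:**
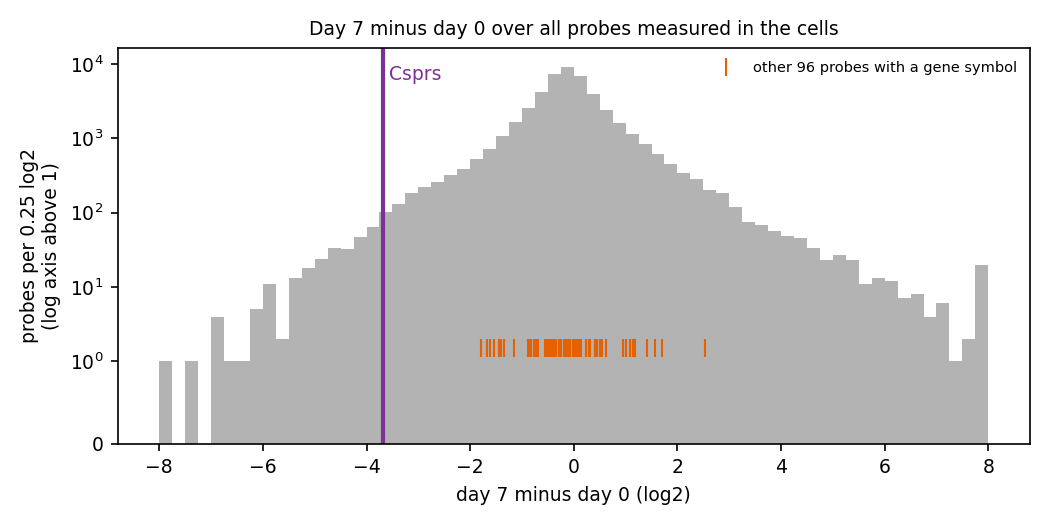
Number of probes (vertical axis, logarithmic above 1) by day 7 minus day 0 difference (log2, horizontal axis) for the probes measured in the cells, with values beyond ±8 placed in the end bars. Csprs (line) is at -3.68 and the other 96 probes with a gene symbol (ticks) lie above it, in a distribution whose median is -0.13.

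Genes often used as expression references differed less from day 0 than Csprs did over the same days. Of 10 such genes 8 were measured, each by 20 spots, and 1 of the 8 was at least 2-fold lower than day 0 on each later day. That gene was Actb, cytoplasmic actin, at -2.24, -1.80 and -1.16 on days 3, 5 and 7. Like Csprs, Actb had its lowest value at day 3 and a higher one at day 7, each read on 1 array per day. Ppia, the prolyl isomerase cyclophilin A, differed from day 0 by -0.29, -0.40 and -0.02, and Hprt, an enzyme of purine salvage, by -0.32, -0.49 and -0.13. Tfrc, the receptor that imports transferrin-bound iron, was above day 0 by 0.58, 1.14 and 1.15. The day 7 differences of the other 4 were 0.44 for Gapdh of glycolysis, -0.29 for B2m, the light chain of MHC class I, -0.83 for the TATA-binding protein gene Tbp, and -0.85 for the lysosomal enzyme gene Gusb.

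**Figure D4:**
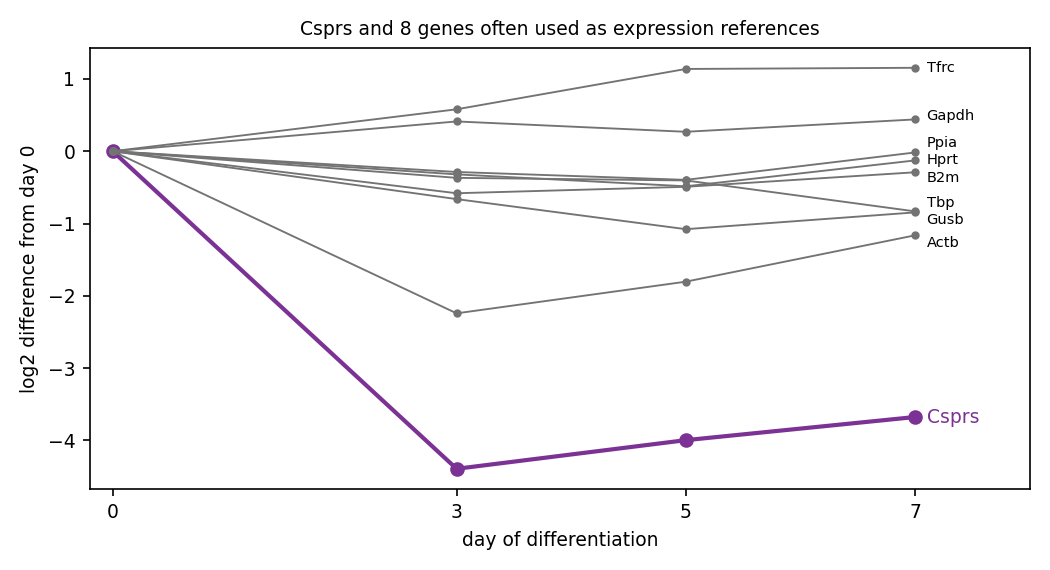
Log2 difference from day 0 (vertical axis) by day of differentiation (horizontal axis) for Csprs and for 8 genes often used as expression references, 1 array per day. Csprs lies between -4.39 and -3.68 from day 3 on, and the reference genes lie between -2.24 and 1.15.

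In fat Csprs lay below the 75th percentile of every array, above the array's median on 5 of the 6 arrays and below it on brown fat replicate 1. Levels were -1.75 and -0.75 in white fat after CL, -2.82 and -2.06 in brown fat after saline, and -0.95 and -0.16 in white fat after saline. The probe was well above background on all 4 white fat arrays and on 1 of the 2 brown fat arrays. In brown fat 159 and 126 of 1200 negative control spots (13.2% and 10.5%), which repeat 20 probes, reached the signal of Csprs. On any other array at most 8 (0.667%) did. Csprs therefore entered the fits below through the white fat groups, and its brown fat values are close to background and are better read as an upper limit than as a level. With bulk tissue, fewer cells of a type and less RNA per cell cannot be told apart.

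The first comparison in fat set brown against white fat after saline. These arrays did not enter the day differences Csprs was chosen by. The gene was chosen with earlier results of these data known, however, so the comparison cannot be called independent of that choice. Csprs averaged -2.44 ± 0.54 in brown fat and -0.55 ± 0.56 in white fat (SD, n = 2 each), and the groups did not overlap. Between the values as read the log2 difference was -1.88 (SE 0.51, 95% interval -3.07 to -0.70), which missed the threshold of 0.05 (limma adjusted p = 0.0565 over 43542 probes, two-sided, where 10.4% of probes were called and 4.86% were called lower and the median difference of all probes was -0.12). Csprs passed the filter through white fat, and its brown fat values are close to background. The interval and the p-values of this comparison therefore describe the values as read, and do not measure a difference in RNA level. Across 14 tested alternative settings the adjusted p ran between 0.00741 and 0.337, and 6 of them called the difference, among them the fits without either CL array (0.0184). Another setting, added after seeing the data and not tested, raised both brown fat signals to the 95th percentile of their array's negative control spots. The log2 difference was then -0.52. The groups overlapped, at -0.91 and -1.25 in brown fat against -0.95 and -0.16 in saline white fat, so no minimum fold is given. With normexp background correction, which shrinks differences of dim spots, the log2 difference was -1.06 (limma adjusted p = 0.1).

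Other values moved with this difference. Along the slide the saline arrays lay in the order brown fat replicates 1 and 2, then white fat replicates 1 and 2, Csprs was higher at each step, and the share of probes well above background was 55.2%, 67.8%, 74.0% and 77.3%, so tissue and place on the slide cannot be told apart. The same order of the 4 arrays was seen for 15.3% of all tested probes. In all 3 fat groups the scaled level of Csprs was higher in replicate 2 than in replicate 1, and replicate 2 was further along the slide. Of the lymphoid markers, Ccl21b was lower in brown fat (4.26 and 5.58 against 7.72 and 7.49 in white fat; limma adjusted p = 0.0293), and so was Ccl21c (4.62 and 5.84 against 7.82 and 7.48; limma adjusted p = 0.0387). Ccl21 chemokines attract lymphocytes and dendritic cells, and their genes are near-identical copies. Their part in the Csprs difference was not tested. Over the 6 fat arrays Pearson's r with Csprs was 0.944 for Ccl21b and 0.937 for Ccl21c. On these arrays 2649 of 41942 probes (6.32%) had r of at least 0.9, and r was 0.913 for Hprt and 0.902 for Gusb. These r values include the brown fat values of Csprs, which are close to background. In the cells, Ccl21b differed from day 0 by -0.24 to 0.11, Ccl21c by -0.36 to 0.01 and Csprs by -4.39 to -3.68. The cell arrays do not measure lymphoid cells in fat.

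The second comparison asked whether CL changed Csprs in white fat. The level averaged -1.25 ± 0.71 after CL and -0.55 ± 0.56 after saline (SD, n = 2 each), and the groups overlapped. The log2 difference was -0.70 (SE 0.51, 95% interval -1.89 to 0.49, limma adjusted p = 0.985), within the spread of the replicates, which leaves a change of either sign possible. By limma 0 of 43542 probes (0%) were called in this comparison, and 2378 had an unadjusted p under 0.05. The processed signals were 174 and 140 after CL against 160 and 306 after saline. They were scaled by 75th percentiles of 585 and 235 after CL and 309 and 342 after saline. The CL array with the brighter spot thus had the lower scaled level. The CL arrays lay in the other column of the slide from all saline arrays, so treatment and column cannot be told apart.

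White fat after CL and brown fat after saline differ in tissue and in treatment, and the third comparison took this pair. The values as read did not overlap and were higher in the treated white fat (log2 difference 1.18, SE 0.51, 95% interval -0.0034 to 2.37), but the difference missed the threshold (limma adjusted p = 0.221, where 3.49% of probes were called and 1.98% were called higher). None of the 14 alternatives called it (limma adjusted p = 0.0935 to 0.755), and with normexp the log2 difference was 0.50. With the brown fat signals raised to the 95th percentile of the negative control spots the difference was -0.18, so no fold is given for this pair.

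Ordered by level, day 0 came first and was followed, 3.68 lower on the log2 scale, by day 7. Saline white fat (mean -0.55), day 5 (-0.71), day 3 (-1.11), CL-treated white fat (mean -1.25) and brown fat (mean -2.44) came after. Neighbours between day 7 and CL-treated white fat were 0.15 to 0.40 apart, less than the SD of either white fat pair (0.56 and 0.71), so their order is not settled. The SDs of the fat pairs were between 0.54 and 0.71. With brown fat at its negative control limit, day 7 (1 array) was 0.69 above it on the log2 scale, similar to these SDs. Cells and tissue were scanned separately, so that difference cannot be told apart from the scan.

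Likeness to Csprs was measured by Pearson correlation of the log2 values over the 10 arrays, as a description. The probe closest to Csprs was ASMM9PARTA046168, which has a design number and no gene name in the files, at r = 0.995 (Spearman's rho = 1.00). Its signals were 2892 at day 0, 164 at day 3, 237 at day 5 and 240 at day 7. In fat they were 139 and 117 after CL, 16.6 and 49.3 in brown fat, and 135 and 256 in saline white fat. The 10 arrays fell in the same order for both probes, and ASMM9PARTA046168 differed from day 0 by -4.32, -3.94 and -3.67 on days 3, 5 and 7, against -4.39, -4.00 and -3.68 for Csprs. The spots are far apart on the array, in row 122, column 103 for ASMM9PARTA046168 and row 281, column 30 for Csprs. Without the day 0 array r was 0.992 over the other 9.

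ASMM9PARTA046168, like Csprs, was not well above background on brown fat replicate 1, and both its brown fat signals lay under the 95th percentile of the negative control spots (114), so no difference from white fat is given for it.

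The other probes with a similar profile had smaller day differences. ASMM9PARTA032146, also without a gene name, had r = 0.987 and was 4.30-fold lower at day 7 than at day 0. Of the probes named by a transcript accession, CA979239, BC098462, AV150534, AK131965 and BG404676 were nearest, with r of 0.959, 0.955, 0.953, 0.937 and 0.921. Their day 7 differences were between -1.13 (AK131965 and BG404676) and -0.79 (CA979239), and AK131965 kept an r of 0.959 without day 0.

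Among probes with a gene symbol, 3 probes for Ppp2r3d came first at r = 0.885, 0.858 and 0.852, followed by Vamp7, a SNARE that helps vesicles fuse, at 0.840 and Disp1, which releases lipid-modified hedgehog proteins from cells, at 0.772. The Ppp2r3d probes were 3.05-, 3.19- and 2.92-fold lower at day 7 than at day 0. Vamp7 was 2.64-fold lower and Disp1 1.61-fold lower. Without the day 0 array r was lower, at 0.646, 0.558 and 0.553 for Ppp2r3d, 0.383 for Vamp7 and 0.652 for Disp1. Over the 6 fat arrays alone r was 0.983, 0.827 and 0.606 for Ppp2r3d, 0.025 for Vamp7 and 0.574 for Disp1.

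**Figure D5:**
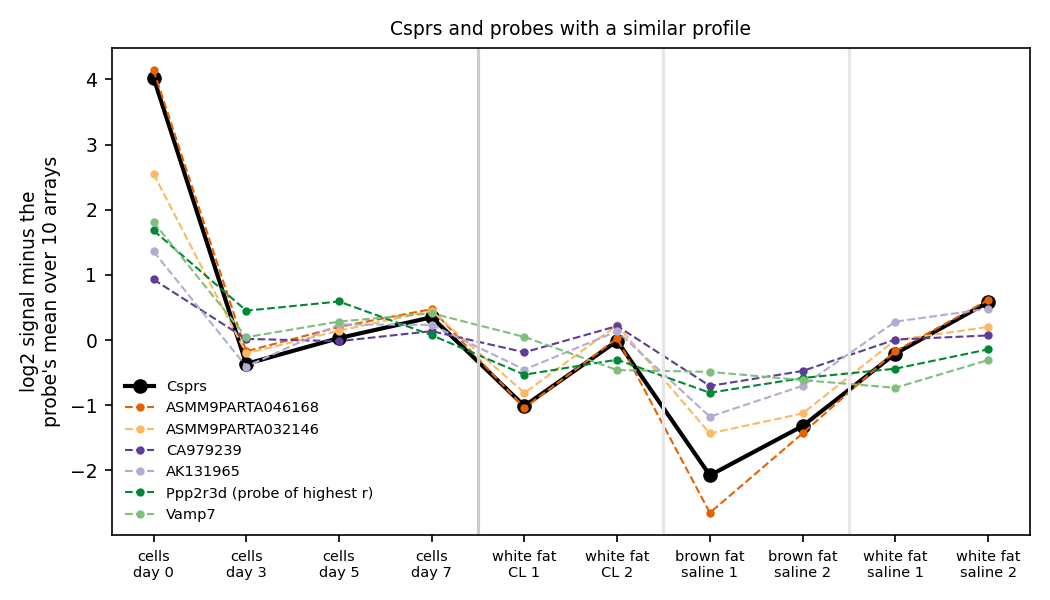
Log2 signal minus the probe's own mean over the 10 arrays (vertical axis), by array (horizontal axis), for Csprs and 6 of the probes with the most similar profiles. ASMM9PARTA046168 follows Csprs on all 10 arrays, while Ppp2r3d and Vamp7 share the high day 0 value with differences from it of -1.61 and -1.40 at day 7.

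In all, 336 of 48477 other probes (0.693%) had r of at least 0.9 with Csprs over the 10 arrays. All 336 had their highest value at day 0, 264 of them were at least 2-fold lower at day 7, and 11 were lower at day 7 by at least as much as Csprs. Their median day 7 difference was -1.61. These values largely follow from choosing the 336 by likeness to a profile far highest at day 0, and are no separate result. Among all probes measured in the cells, 282 of 48608 (0.58%) were as low as Csprs or lower at day 7. By name, 0 carried a gene symbol, 6 a transcript accession and 312 a design number alone. Without the day 0 array 324 probes reached the same r, and 61 of the 336 were among them.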

How the data were processed

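One array per sample was analysed, 6 of mouse fat and 4 of cultured brown adipocytes. Per the file headers, the deposited intensity values are background-subtracted processed signals, with median spot and background brightness and flags, from Agilent Feature Extraction 11.0.1.1. The submitters' processing notes name version 9.1. The deposited log2 value table does not list the Csprs probe and gave no values here; its normalization by the authors is not given in the sources used here.

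In R 4.3.3 control, negative control and outlier spots were left out, spots of a probe were averaged as log2, and the array's 75th percentile was subtracted. Probes with both arrays of 1 or more fat groups well above background were fitted with limma 3.58.1 (lmFit, eBayes; group means, 6 arrays, 3 residual degrees of freedom, prior 4.46), Benjamini-Hochberg adjusted over 43542 probes, called under 0.05. The cell arrays have no replicate and no test. P-values measure the spread between these arrays, whose number limits the precision.

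Of 123 probes with a RefSeq accession 116 received a symbol. The gene, its lists and the named probes were chosen with earlier results of these data known. Named were Csprs, every measured gene of the lists, and the probes most correlated with Csprs (5 with a symbol, 5 with a transcript accession, 2 with a design number alone) and next to it in the day 7 order. Alternatives were normexp (offset 50, on median signals, since the files hold no mean spot signal), quantile and median scaling, other filters, leaving out each array, other sets of arrays, a replicate block and array weights. The alternatives without day 0 and with brown fat signals raised to the negative controls' 95th percentile were added after seeing the data.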

Additional observations from a re-analysis of the deposited data

How the results depend on the processing

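The day differences of Csprs kept their direction and moved by less than the pooled SD of the fat pairs (0.60) with normexp, quantile and median scaling (day 7 minus day 0, -3.68 to -3.39). Day 7 minus brown fat, 2.05 as read, was 1.13 with normexp. With brown fat signals raised to the negative controls' 95th percentile it was 0.69, brown minus saline white fat was -0.52, and CL white fat minus brown fat, 1.18 as read, was -0.18 (not tested). Brown minus saline white fat kept its direction in the 14 tested alternatives, but brown fat was near background, so p-values measure no RNA difference. It passed the limma threshold with median scaling (-1.83, adjusted p = 0.0468), the 2 groups alone (-1.88, 0.018) and array weights (-1.88, 0.00741). Leaving out 1 array gave -2.28 to -1.49 (without saline white fat replicate 1 or 2) for it. CL minus saline white fat was -1.20 to -0.20 and CL white fat minus brown fat 0.69 to 1.68 (both without CL replicate 2 or 1). Requiring all 6 fat arrays well above background removed Csprs.

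Deviations of replicate 1 correlated at -0.02 (brown and saline white fat), -0.08 (CL white and brown fat) and 0.50 (CL and saline white fat). The CL and saline white fat arrays thus shared part of their deviations. Whether the replicate numbers pair the samples cannot be told from these values. With the replicate block brown minus saline white fat, as read, was -1.88 (limma adjusted p = 0.0222), and 1 probe was called between CL and saline white fat.

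Between brown and saline white fat 4526 probes were called, but 1385 with no filter, 14260 with the 2 groups alone, 16301 with array weights and 321 (without brown fat replicate 1) to 14226 (without either CL array) with 1 array left out. Between CL and saline white fat they were 0, but 32 with normexp, 2 with that requirement, 2 with all 10 arrays in 1 fit and 0 to 110 (without saline white fat replicate 2) with 1 array left out. Between CL white and brown fat they were 1521, but 544 with no filter, 2871 with the 2 groups alone, 2512 with all 10 arrays, 265 with array weights and 203 (without brown fat replicate 1) to 11522 (without CL replicate 2) with 1 array left out. Probes at least 2-fold lower than day 0 on each later day were 3014, but 1568 with normexp and 1816 with the same requirement on the 4 cell arrays. The causes were not tested. Of the 12 probes most like Csprs, 8 were named again with normexp or quantile normalization, 2 on cell arrays alone, 1 on fat arrays alone and 3 without day 0.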
